A study of Mus musculus with 6 samples.

Results

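The 7 genes described here encode or partner the core transcription factors of pluripotent cells: Pou5f1, Nanog, Sox2, Sall4, Utf1, Zfp281 and Lin28a. Accessible regions were assigned to them where the gene was the nearest protein-coding gene within 100 kb. By that rule they held 102 of the 205844 peaks of the list named FM and 80 of the 139164 peaks of the list named KO, which merged into 121 of 239675 accessible regions. The nearest gene is a label of position and does not show which gene a region acts on.

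ATAC-seq, which reads open chromatin from where the Tn5 transposase can cut, was run on 6 libraries of mouse epiblast stem cells, the stem cells of the post-implantation epiblast. All cells had been grown with bFGF and Activin A on irradiated fibroblast feeders and then differentiated in serum as embryoid bodies for 2 days. The groups were Mixl1 KO, with 3 libraries, and Mixl1 induced, with 3 libraries from Mixl1 inducible lines given doxycycline at 1 µg/mL for 24 h. Each library came from 50000 cells and 11 PCR cycles. The treatment text names the inducible lines alone, and whether the KO cells also received doxycycline is not given. The number of lines or clones, the way the knockout was made and the promoter that drives the induced gene are likewise not given, so induction, doxycycline and cell line cannot be told apart. Each group is 1 deposited peak list, and no label explains the name FM. It was set to the induced group by elimination and is called the FM list throughout, with FM and KO standing for the lists beside values. Replicate error cannot be estimated from 1 list a group, so no test was made and every difference described is one between these lists. In bulk libraries, fewer cells with a region open and less opening per cell cannot be told apart.

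Pluripotent cells are held in their state by a small set of transcription factors that bind each other's enhancers and their own. OCT4, the product of Pou5f1, pairs with SOX2 on composite DNA elements, and NANOG stabilises the state that they set. SALL4 is a zinc finger factor that works with OCT4 and NANOG, UTF1 is a chromatin-bound protein that OCT4 and SOX2 switch on, ZFP281 is a zinc finger factor that binds GC-rich promoters and acts in the passage from naive to primed pluripotency, and LIN28A is an RNA-binding protein that blocks maturation of let-7 microRNAs. Epiblast stem cells express the core factors in their primed state, and as they differentiate toward mesoderm and endoderm this program is shut down. MIXL1 is a homeobox factor of the primitive streak.

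The promoters of 4 of the genes are printed. That of Pou5f1 does not cover the peak at −2.01 kb, where its flank ranked differently in the lists. The others are Nanog, where only the KO list had a promoter peak, and Sox2 and Zfp281, each with its highest peak at the promoter in both lists. Each printed sequence is the 250 bases before the RefSeq start on GRCm38.p6, the assembly that mm10 names. All are 5′ to 3′ on the plus strand, on which all 4 genes lie: Nanog at chr6:122707239-122707488, Pou5f1 at chr17:35505782-35506031, Sox2 at chr3:34649745-34649994 and Zfp281 at chr1:136624651-136624900. Capitals mark the SOX and octamer composite with the SOX core in Nanog, a GC-rich box in Pou5f1, a SOX-type core and a CCAAT box in Sox2, and a CCAAT box in Zfp281.
Nanog: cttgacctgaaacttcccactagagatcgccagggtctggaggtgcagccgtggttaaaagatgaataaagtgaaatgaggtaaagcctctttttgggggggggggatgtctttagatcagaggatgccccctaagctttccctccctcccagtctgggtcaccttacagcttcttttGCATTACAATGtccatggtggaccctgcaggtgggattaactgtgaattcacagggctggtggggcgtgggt
Pou5f1: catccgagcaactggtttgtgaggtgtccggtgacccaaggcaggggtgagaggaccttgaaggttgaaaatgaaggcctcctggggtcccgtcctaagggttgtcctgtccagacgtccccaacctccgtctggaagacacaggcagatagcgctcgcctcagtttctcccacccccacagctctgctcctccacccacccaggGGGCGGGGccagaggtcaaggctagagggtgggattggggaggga
Sox2: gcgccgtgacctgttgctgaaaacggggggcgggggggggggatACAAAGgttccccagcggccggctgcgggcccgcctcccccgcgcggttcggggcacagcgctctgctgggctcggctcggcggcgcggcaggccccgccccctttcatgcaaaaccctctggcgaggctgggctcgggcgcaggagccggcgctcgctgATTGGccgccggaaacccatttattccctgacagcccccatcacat
Zfp281: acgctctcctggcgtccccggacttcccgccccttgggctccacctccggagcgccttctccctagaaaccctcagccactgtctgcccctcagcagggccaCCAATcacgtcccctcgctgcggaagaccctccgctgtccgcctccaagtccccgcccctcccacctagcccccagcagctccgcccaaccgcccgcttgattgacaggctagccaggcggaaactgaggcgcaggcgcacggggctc

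A promoter sequence was found in the RefSeq table for 6 of the 7 genes, and Sall4 is named only. The composite element TTGTNATGC, which joins a SOX site to most of an octamer, lay in the Nanog promoter at bases −72 to −64 before the start on the minus strand, and in 0.68% of 17492 coding promoters searched on both strands (119 promoters). The SOX core ACAATG overlapped it at −67 to −62 and was also in the Lin28a promoter, against 9.57% of all promoters. OCT4 and SOX2 are known to bind this composite in Nanog. The GC-rich box GGGNGGGG, the type that ZFP281 binds, was in 6 of 6 member promoters and in 36.1% of all, and GGGCGG, which overlaps it, was in 4 of 6 and in 42.7%. The full octamer ATGCAAAT and the TATA box TATAAA were in none of the 6, against 1.62% and 12.4% of all. Neither TAATTA (4.46% of all) nor the paired homeodomain P3 site (0.377% of all), the forms that homeobox factors bind, was in a member promoter. These are matches of letters in this window only. The Nanog promoter had 3 CpG sites and 52% G and C, while the Sox2 promoter had 27 and 72% and the Zfp281 promoter 19 and 69.6%. The median coding promoter had 10 CpG sites, and 23.6% had fewer than Nanog.

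As over the whole lists, most of the open chromatin that the KO list held at these genes was also in FM, and the FM list held more besides. Of the 80 KO peaks, 59 overlapped an FM peak (73.8%, exact binomial interval at 95% confidence 62.7 to 83) and 21 did not (26.2%, against 27.5% of all KO peaks). Of the 102 FM peaks, 58 overlapped a KO peak (56.9%, 46.7 to 66.6) and 44 did not (43.1%, against 50.8% of all FM peaks). These intervals cover the counting of peaks alone. By fold, 17 of the FM peaks (16.7%) and 7 of the KO peaks (8.75%) were in the top 10% of their list. Merged, 56 regions were in both lists (46.3%, against 40.5% over all regions), 44 were FM-specific and 21 KO-specific. Of these 65 specific regions 67.7% were FM-specific (54.9 to 78.8), against 73.2% over the genome. At the 10 genes of a feeder fibroblast list the same share was 85.1%, and the part of feeder cells in the counts was not tested. With 50000 peaks kept from each list the member share was 48%, from 12 regions in FM alone and 13 in KO alone. Lists of equal length hold about as many specific peaks each, and the share over all regions at this setting was not counted. The shares of member peaks found in the other list were then 66.7% for FM and 65.8% for KO, so their order turned.

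**Figure D1:**
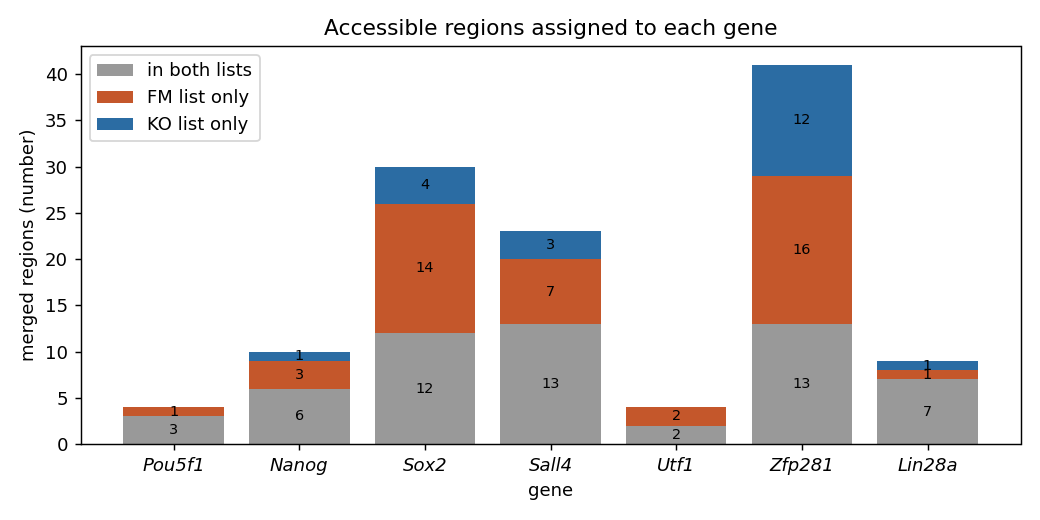
Number of merged accessible regions (vertical axis) assigned to each of the 7 genes, stacked as in both lists (grey), FM list only (orange) and KO list only (blue). Zfp281 has 41 regions, Sox2 30 and Sall4 23, and only Pou5f1 and Utf1 have no KO-specific region.

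The genes differed widely in how much open chromatin was assigned to them. Zfp281 had 41 regions, more than 95.6% of coding genes, Sox2 had 30 (91.9%) and Sall4 had 23 (87.6%). Nanog had 10 and Lin28a 9, while Pou5f1 and Utf1 had 4 each, more than 39.2% of coding genes. The distance to other coding genes also differed, and its part in the counts was not tested. The gene before Sox2 lies 569 kb away and the gene after Zfp281 212 kb away, the wider gaps at Sall4, Nanog and Lin28a were 126, 77.2 and 41.5 kb, and Tcf19 lies 1.95 kb after Pou5f1 and Kndc1 2.31 kb before Utf1. FM-specific regions outnumbered KO-specific ones at 6 of the 7 genes (66.9% of coding genes with a region) and KO-specific ones led at 0 (13.8%). Lin28a had 1 of each. The order changed with the peaks kept, and the shares of all coding genes at the settings that follow were not counted. With 50000 peaks from each list FM-specific regions led at 3 genes and KO-specific ones at 2, Nanog (3 KO-specific against 0) and Zfp281 (7 against 1). The KO-specific regions of Zfp281 also outnumbered the FM-specific ones at −log10 q of 5 or more (10 against 9), at 10 or more (2 against 1) and within 20 kb (4 against 3).

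**Figure D2:**
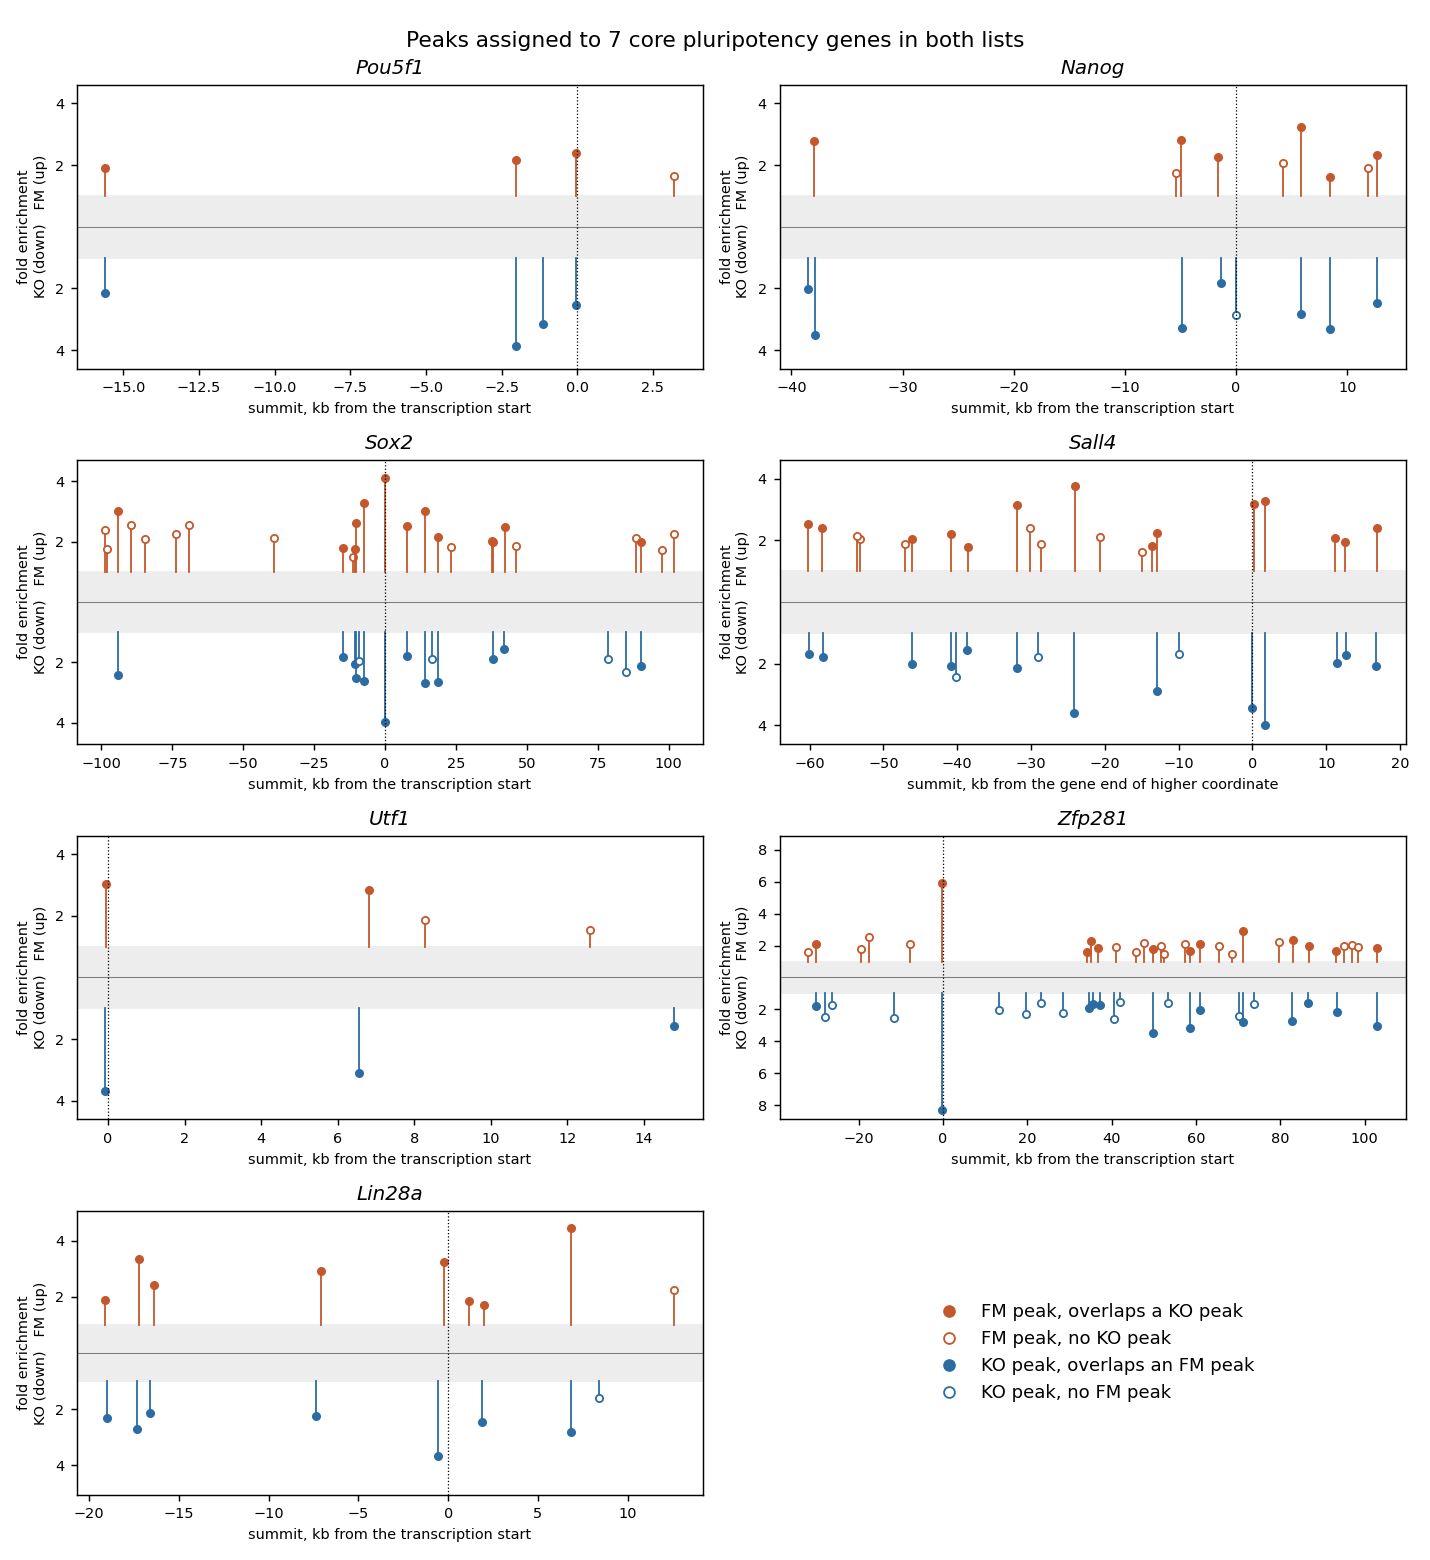
Fold enrichment of each peak over its local background (vertical axis, FM list upward and KO list downward from a grey band below fold 1) against the distance of its summit from the gene's start in kb, 1 panel per gene. For Sall4 the distance is from the gene end of higher coordinate. Filled points overlap a peak of the other list and open points do not; the highest points of Sox2, Utf1 and Zfp281 face each other at the start, and those of Pou5f1, Nanog, Sall4 and Lin28a do not.

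Promoters were open at nearly all of these genes in both lists. A peak lay over the promoter window, from 250 bases before to 50 after the start, at 5 of 6 genes in FM (68.9% of 17492 coding genes) and at 6 of 6 in KO (66.6%). Sall4 had a peak over the gene in both. At Zfp281 the promoter peak was the strongest of any of the 7 genes. Its fold, which is the number of fragments over the summit divided by the local expectation, with 1 added to both, was 5.9 in FM (257 fragments against 42.7 expected, in the top 0.893% of that list) and 8.29 in KO (493 against 58.6, in the top 0.523%). At Sox2 the promoter peak reached across the start into the gene, chr3:34648711-34651372 in FM, with 6 summits in each list, and had fold 4.1 (FM, 206 fragments) and 3.99 (KO, 267 fragments). The Utf1 promoter had fold 3.02 and 3.68. The Lin28a promoter, on the minus strand of chromosome 4, had 6 summits in each list and fold 3.25 and 3.69. Each of these 4 promoter peaks was in the top 10% of its list. Pou5f1 was lower, with 2.38 and 2.55 at the summits −54 and −49 bp from the start, and it was past the top 20% in both lists.

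The Nanog promoter was the exception, with a peak in KO and none in FM. The KO peak, chr6:122707180-122707632, reached across the start and had its summit 8 bases before it, at −8. It held 123 fragments (exact Poisson interval 102 to 147, counting error only) where 42.3 were expected, fold 2.87 and −log10 q 21.3, which placed it in the top 15.8% of the KO list. The nearest FM peak lay 907 bp away. Of all coding genes, 256 had a promoter peak in KO alone (1.46%), 670 in FM alone (3.83%) and 65.1% in both. Among promoters with 1 to 4 CpG sites, the class of Nanog, 2.5% were open in KO alone and 7.74% in FM alone. Few of this class were open at all, 19.2% in KO and 24.4% in FM, so the shares among open promoters are larger. A missing peak means only that the FM list has none past its threshold, a q of 0.05, and the fragments over this site in the induced cells are not known.

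Around Nanog (chr6:122707489-122714633), 6 regions were in both lists, 3 were FM-specific and 1, the promoter, was KO-specific. The shared region about 38 kb before the start had fold 2.78 in FM (109 fragments, 89.5 to 131) and 3.5 in KO (132, 110 to 157). That at −4.9 kb, with summits at −4.93 and −4.83 kb, had 2.81 (85 fragments, 67.9 to 105) and 3.28 (133, 111 to 158). The counting intervals of this second pair do not overlap. Here and below, how many of all shared regions have intervals that do not overlap was not counted. Such a gap is therefore not shown to be particular to these genes. The genome-wide expectation was 28.6 fragments in FM and 28.8 in KO, so the background was similar as long as peak calling used equal settings for each. The spread of fragments over all shared regions still differed. Ordered by fragments from the top, 266 in FM stood at 4.16% and 329 in KO at 4.17%. Lower down, 78 in FM stood at 64.8% and 71 in KO at 64.5%. A gap in fragments can therefore hold a difference between the whole lists, which was not taken out. Within the gene, the summits at 5.81 and 5.82 kb had 3.22 (107 fragments) and 2.83 (114), and the FM list had a further peak at 4.21 kb with fold 2.08 and no KO peak within 1.36 kb.

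The widest gap at Nanog was past the end of the gene, at 8.49 kb. There the KO peak had fold 3.31 from 142 fragments (120 to 167) and the FM peak 1.62 from 59 (44.9 to 76.1). Among the 96962 shared regions, ordered by fold from the top within each list, this one stood at 16% in KO and 94.3% in FM. A shift of over 10 percentage points toward the FM list was seen at 1 region, at −1.5 kb, with 2.26 in FM and 1.82 in KO. Its fragments were 77 and 79, and ordered by fragments it stood higher in KO. By fragments 5 of the 6 shared Nanog regions stood over 10 points higher in KO, and the sixth, within the gene, differed by less.

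**Figure D3:**
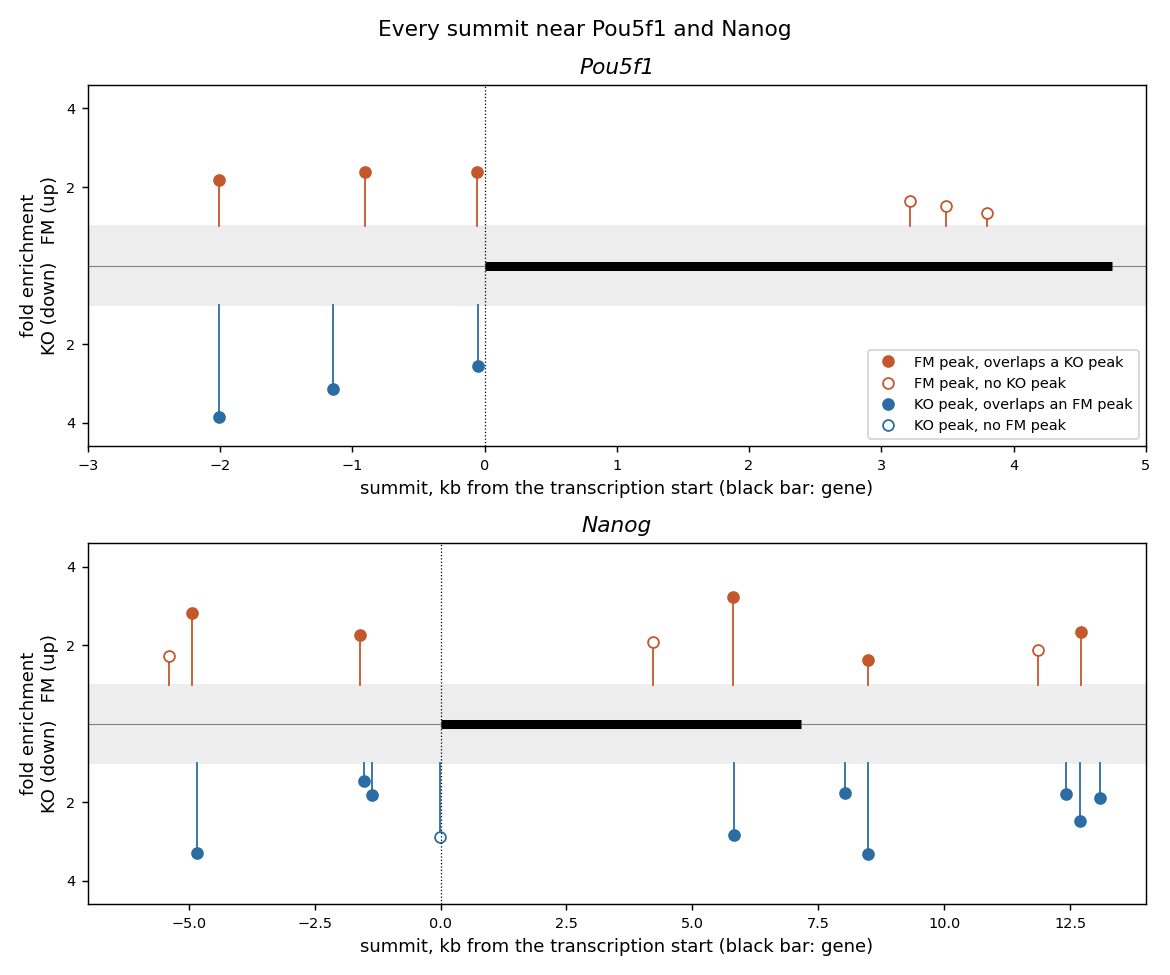
Fold enrichment at every summit near Pou5f1 and Nanog (vertical axis, FM list upward, KO list downward) against distance from the start in kb, with the gene as a black bar; filled points belong to peaks that overlap the other list. At Pou5f1 the KO summits grow taller from the start out to −2.01 kb while the FM summits stay between 2.18 and 2.39, and at Nanog the start is marked in KO alone.

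Pou5f1 (chr17:35506032-35510777) had open chromatin in a compact block before its start in both lists, but its height was ordered differently. The gene is known for a proximal enhancer used in the epiblast and, further out, a distal enhancer used in naive cells and germ cells. No file used here marks them, so the peaks are given by position. In the KO list the summits at −2.01, −1.14 and −0.049 kb had fold 3.86, 3.15 and 2.55, from 351, 304 and 249 fragments. The outermost was the highest, with −log10 q 92.8. In the FM list the summits at −2.01, −0.901 and −0.054 kb had fold 2.18, 2.39 and 2.38, from 215, 263 and 266 fragments. At −2.01 kb, where the summits of the lists were 2 bp apart, the counting intervals were 187 to 246 in FM and 315 to 390 in KO. At the start itself they were 235 to 300 and 219 to 282 and overlap.

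All 3 shared regions of Pou5f1, the third at −15.6 kb with fold 1.89 and 2.16, stood over 10 points higher in KO when ordered by fold, and 0 did when ordered by fragments. By fragments the regions at −2.01 kb and at the start stood at 7.75% and 4.16% in FM. A shift of over 10 points toward KO was therefore not possible for them. The third stood at 60% in FM and 51.6% in KO. The background differs from that of most peaks: the local expectation reached 113 fragments in FM and 97.1 in KO, a level that 0.877% and 1.71% of peaks reach. A single FM-specific peak, chr17:35509084-35509840, lay inside the gene with summits at 3.21, 3.49 and 3.8 kb. Its highest fold was 1.64, from 185 fragments against 113 expected, with −log10 q 7.75, and the nearest KO peak was 2.73 kb away. KO-specific peaks at Pou5f1 numbered 0.

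Sox2 (chr3:34649995-34652461), a single-exon gene in a wide gene-poor interval, had 12 shared regions, 14 FM-specific and 4 KO-specific. Of the shared regions outside the promoter, that at −7.31 kb had fold 3.27 in FM (133 fragments, 111 to 158) and 2.63 at −7.32 kb in KO (114, 94 to 137), and that at 14.2 kb had 3.01 and 2.67. The counting intervals of each pair overlap. The region at 18.7 kb had 78 fragments in FM (61.7 to 97.3) and 133 in KO (111 to 158), fold 2.16 and 2.65, and these intervals do not overlap. The FM value was the higher at 42.3 kb, with fold 2.5 from 73 fragments (57.2 to 91.8), against 1.57 at 41.9 kb from 46 (33.7 to 61.4) in KO, and here the intervals overlap slightly.

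The FM-specific peaks of Sox2 were mostly small and far away. The 2 of highest fold, at −89.5 and −69.2 kb, both had fold 2.54 from 74 fragments (58.1 to 92.9) against 28.6 expected, and the nearest KO peaks were 4.45 and 24.7 kb off. Another 6 passed −log10 q 5, with folds from 2.1 to 2.4. Within 20 kb of the gene there were 1 FM-specific and 2 KO-specific regions. The strongest KO-specific peak, at 85.1 kb, had fold 2.31 from 68 fragments, and that at 16.4 kb had 99 fragments, fold 1.87.

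The limit of 100 kb cuts through the open chromatin of Sox2, which is known for a control region far downstream that is used in embryonic stem cells. The last FM peak inside, at 102 kb from the start and 99.7 kb from the gene's end, had fold 2.27, and the first outside, at 105 kb, had 2.31. From 100 to 200 kb there were 19 FM and 10 KO peaks for which Sox2 was nearest, 7 in each list shared. At 108 kb the KO peak had fold 2.65 from 105 fragments (85.9 to 127) and the FM peak 1.8 from 59 (44.9 to 76.1). At 124 kb they had 3.28 from 100 (81.4 to 122) and 2.27 from 66 (51 to 84). At 146 kb, where both lists had their highest, the folds were 3.85 and 3.65 and the fragments 114 and 107. The intervals at 108 kb do not overlap, those at 124 kb overlap slightly, and those at 146 kb, 94 to 137 in KO and 87.7 to 129 in FM, overlap widely.

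Sall4 (chr2:168748332-168767201) had 13 shared regions, 7 FM-specific and 3 KO-specific. Distances are from the gene end of higher coordinate, since its start was not in the promoter table. The folds within the gene at about 1.7 kb were 3.28 in FM (250 fragments, 220 to 283) and 3.98 in KO (379, 342 to 419). At that end itself they were 3.19 at 0.232 kb (235, 206 to 267) and 3.44 at −0.07 kb (313, 279 to 350). The counting intervals at about 1.7 kb do not overlap. The KO summit at 0.217 kb had 293 fragments (260 to 329), which overlaps the FM interval at 0.232 kb. The FM summit at −0.061 kb had 205 (178 to 235), which does not overlap the KO interval at −0.07 kb. Ordered by fold, both regions stood within 10 points in the lists. The distal region at −24.1 kb had the highest fold of the gene in FM, 3.76, and 3.59 in KO, from 155 and 147 fragments.

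Of the 13 shared regions of Sall4, 6 stood over 10 points higher in FM and 1 in KO. The FM ones were 4 regions outside the gene and 2 inside it. The regions centred at −60.1, −58.3 and −32.1 kb had FM folds of 2.54, 2.41 and 3.16 against KO folds of 1.68, 1.77 and 2.14. Their FM fragments were 111, 110 and 120, and their KO fragments 71, 73 and 86. At −60.1 kb the counting intervals were 91.3 to 134 in FM and 55.5 to 89.6 in KO and do not overlap. At −58.3 kb they were 90.4 to 133 in FM and 57.2 to 91.8 in KO, and overlap slightly. At −32.1 kb they were 99.5 to 143 in FM and 68.8 to 106 in KO, and also overlap. The 1 region higher in KO, at −13 kb, had 2.88 against 2.24. The strongest specific peaks were an FM peak at −30.1 kb with fold 2.41 and 89 fragments and a KO peak at −40.1 kb, chr2:168806741-168807475, with fold 2.44 and 117 fragments. The latter lay 240 bp from an FM peak, so both lists had open chromatin close by.

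Lin28a (chr4:134003330-134019196, minus strand) shared 7 of its 9 regions. Its highest FM peak was inside the gene at 6.86 kb from the start, with fold 4.45 from 280 fragments (248 to 315) and in the top 2.7% of the list. In the KO list the same place had fold 2.81 from 163 fragments (139 to 190), and the promoter was higher there, with 3.69 from 329. The intervals at 6.86 kb do not overlap. At the promoter, the summits at −0.228 kb in FM and −0.189 kb in KO had 241 to 306 and 253 to 320, which overlap. Those at −0.64 kb in FM and −0.59 kb in KO had 219 to 282 and 294 to 367, which do not. Outside the gene, the regions centred at −7.24, −16.5 and −17.2 kb had FM folds of 2.92, 2.4 and 3.34 against 2.24, 2.13 and 2.72. Ordered by fold, 4 of the 7 shared regions stood over 10 points higher in FM and 2 in KO, the latter at 1.49 kb, inside the gene, and at −19 kb. The 1 strong specific peak, FM, was at 12.6 kb, also inside the gene, with fold 2.24 and 108 fragments.

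Utf1 (chr7:139943856-139945112) had 2 shared and 2 FM-specific regions. Its shared regions, the promoter and one at 6.83 kb in FM and 6.57 kb in KO, stood within 10 points in both. The second had fold 2.85 from 139 fragments (117 to 164) and 3.09 from 154 (131 to 180), and the counting intervals overlap at both regions. The FM-specific peaks were at 8.29 kb, fold 1.87, and 12.6 kb, fold 1.54. The third KO peak, at 14.8 kb with fold 1.59, overlapped an FM peak that was not assigned to Utf1, so no region of this gene was KO-specific.

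Zfp281 (chr1:136624901-136630391) had the most open chromatin of the 7 genes, 13 shared regions, 16 FM-specific and 12 KO-specific, most of it on the side of Nr5a2. At its promoter the intervals were 227 to 290 fragments in FM and 450 to 539 in KO. The region was near the top of both lists, so its rank could hardly move. Of the 13 shared regions 6 stood over 10 points higher in KO and 3 in FM. At 49.9 kb the KO peak had fold 3.47 from 193 fragments (167 to 222) and the FM peak 1.77 from 70 (54.6 to 88.4). At 58.7 kb they had 3.16 from 111 (91.3 to 134) and 1.64 from 50 (37.1 to 65.9), and at 103 kb 3.05 from 101 (82.3 to 123) and 1.83 from 57 (43.2 to 73.9). At these 3 places the counting intervals do not overlap.

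Specific peaks at Zfp281 lay among the shared ones. Past −log10 q 5 there were 6 in each list, with folds from 1.97 to 2.54 in FM and from 2.24 to 2.6 in KO. The strongest FM one was at −17.6 kb, fold 2.54 from 74 fragments, 5.85 kb from any KO peak. The KO ones of highest −log10 q were at 40.5 kb, fold 2.6 from 94 fragments, and at 70.2 kb, fold 2.39 from 101, and they lay 177 and 539 bp from an FM peak. Downstream of the gene the KO list had peaks at 13.4, 19.8, 23.3 and 28.4 kb, where the FM list had none before 34.2 kb.

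Across all 7 genes, 23 of the 102 FM peaks were specific with −log10 q of 5 or more (22.5%, against 20.4% of all FM peaks), and 11 of the 80 KO peaks (13.8%, against 10.5%). With −log10 q of 10 or more there were 5 FM (4.9%, against 2.99%) and 4 KO peaks (5%, against 2.59%). Sox2 had 2 of the 5 FM peaks, and Sall4, Zfp281 and Lin28a 1 each. Of the 4 KO peaks Zfp281 had 2, and Nanog and Sall4 1 each. The Nanog promoter had the highest −log10 q of the 9.

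The strongest peak of a gene by fold was at different places in the lists for 4 of the 7 genes, against 24.4% of 12001 coding genes with at least 3 peaks in each list. It was at the start in FM and at −2.01 kb in KO for Pou5f1, at 5.81 and −37.9 kb for Nanog, at −24.1 and 1.73 kb for Sall4, and at 6.86 and −0.59 kb for Lin28a. At Sox2, Utf1 and Zfp281 it was the promoter in both. By fragments, an order chosen after the data were seen, 3 of 7 differed (24.1% of coding genes). Sall4 then no longer did, and at Nanog the strongest were at −38 and 8.49 kb. With 7 genes the share is coarse, and it was not tested.

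Ordered by fold, 18 of the 56 shared regions (32.1%) stood over 10 points higher in FM and 16 (28.6%) higher in KO. Over all shared regions these were 28.5% and 28.4%, so the shares over the members were near the background in both directions. By fragments the counts were 13 and 20 of the 56, against 24.7% of all shared regions in each direction. The KO share was then above that background and the FM share near it, which was not tested. By gene, Pou5f1 had 0 to the FM list and 3 to the KO list, Zfp281 3 and 6, Sall4 6 and 1, Lin28a 4 and 2, Sox2 4 and 3, Nanog 1 and 1, and Utf1 0 and 0. By fragments 5 of the 7 genes changed: Pou5f1 to 0 and 0, Nanog to 0 and 5, Sox2 to 2 and 4, Zfp281 to 1 and 9 and Lin28a to 4 and 1. The direction turned at Sox2, and the counts of Sall4 and Utf1 were as by fold. At Pou5f1 the regions nearest the start stood too high in FM by fragments to shift over 10 points toward KO. Each gene has from 2 to 13 shared regions.

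**Figure D4:**
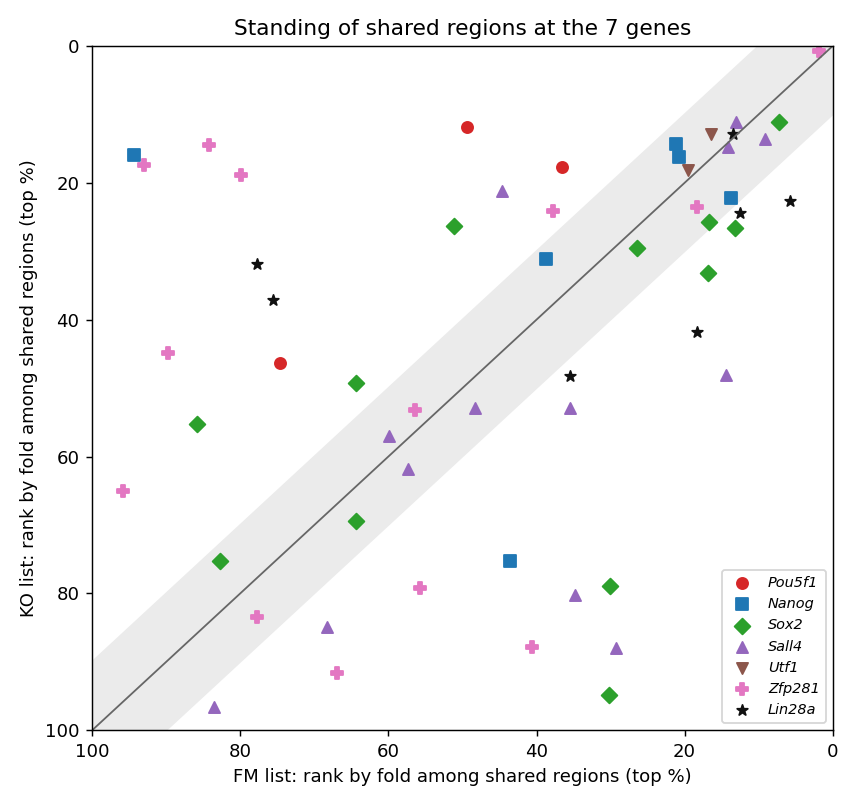
Place of each of the 56 shared regions in KO (vertical axis) against its place in FM (horizontal axis), both as the percentage from the top among 96962 shared regions ordered by fold, with 1 symbol per gene. The grey band is a shift of up to 10 percentage points; the promoter of Zfp281 is at the top right corner, and a Nanog region and 2 of Zfp281 stand near the top left, high in KO and low in FM.

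The summits of shared regions were close together. In the 56 regions they lay a median of 63.5 bp apart, 34 of them (60.7%) within 100 bp, against 52 bp and 68% over all shared regions. The largest distance was 1090 bp, at the start of Pou5f1, where the FM list merged into 1 peak what the KO list held as 2.

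Partner genes of the network gave similar splits. The 20 partners, among them Sall1, Lin28b, Trim71, Tcf7l1, Mycn and Foxd3, had 141 shared, 137 FM-specific and 45 KO-specific regions, so 75.3% (68.3 to 81.4) of their specific regions were in FM, and 11 of 12 promoters had a peak in both lists. Tcf7l1, a repressor of the network, had 23 shared, 28 FM-specific and 5 KO-specific regions. Sall1, a relative of Sall4, had 20, 23 and 8, and Lin28b, the paralogue of Lin28a, 5, 4 and 0. Dppa2 and Dppa4 had no region. The 14 naive pluripotency genes had 138, 159 and 66 (70.7%, 64.2 to 76.5) and the 11 primed epiblast genes 113, 88 and 31 (73.9%, 65.1 to 81.6). The intervals of these 3 lists overlap that of the 7 members, 54.9 to 78.8. Dppa3, the neighbour of Nanog, had 3, 3 and 5, and Nr5a2, the neighbour of Zfp281, had 19, 17 and 17.

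Promoter peaks were also counted in lists of genes named for cell states, beside 68.9% (FM) and 66.6% (KO) of all coding genes. Of promoters with 15 or more CpG sites, 98.2% had a peak in FM and 98.3% in KO. The counts therefore do not settle the cell state. The primed epiblast list had peaks at 7 of 7 promoters in both lists and the primitive streak list at 8 of 8 (FM) and 7 of 8 (KO), where Evx1 made the difference. The naive list had 7 of 9 and 6 of 9, so most naive promoters were open too. Esrrb, Klf2, Klf4, Tfcp2l1, Fgf4 and Tcl1 had a promoter peak in both lists and Nr0b1 in FM alone. Zfp42 and Nr5a2 had none in either. Of 6 feeder fibroblast promoters 3 were open in both lists, Col1a2, Twist2 and Fbn1, while Col3a1, Postn and Prrx1 had none and Dcn and Lum had no region at all. Of 7 promoters of organ genes, 2 were open. Open chromatin does not show that a gene is expressed.

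By the number of shared and specific regions and the highest fold in each list, the coding gene most like each member among 17586 was Gm46345 for Pou5f1, Sh2b3 for Nanog, Bsn for Sox2, Skor1 for Sall4, Ednrb for Utf1, Capn8 for Zfp281 and Prcd for Lin28a. Ednrb matched Utf1 most closely, with 2 shared, 2 FM-specific and 0 KO-specific regions and highest folds of 2.98 and 3.69. Capn8 had 14, 18 and 13 regions and highest folds of 5.52 and 8.42.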

How the data were processed

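Each group of 3 ATAC-seq libraries of mouse epiblast stem cells was represented by 1 deposited peak list in narrowPeak layout. MACS2, Bowtie2, SAMtools and bcl2fastq are named, with build mm10, per the submitters' processing notes. Not given in the sources used here: versions, the way libraries were combined, Tn5 shifts and read filters. The deposited values per peak are the fold, a ratio of the summit to its local background, and the authors' −log10 p and −log10 q. Being the peak caller's own, they serve here for description, order and filters inside 1 list.

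Rows of 1 interval were collapsed to the one of highest −log10 p, and peaks on the autosomes, X and Y were kept (130 FM and 187 KO peaks lay elsewhere). Peaks overlapping by at least 1 bp were shared. Genes came from a RefSeq table of GRCm38.p6 with 21887 protein-coding genes; distance was 0 on overlap, and no member peak was tied. Exons and introns were not used here. Fragments over a summit and the expected number were recovered from fold and p, which gave whole numbers within 0.02 for 100.00% of 205661 FM and 99.99% of 138470 KO peaks recovered. The depth in reads is unknown. Places in a list were compared over the 96962 shared regions, with a shift of over 10 percentage points counted. Recovery, overlap and assignment were tested on simulated data. Python 3.11.15, numpy 2.4.6, pandas 2.3.3, scipy 1.17.1 and matplotlib 3.10.9 were used.

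The members, the gene lists and the motifs were chosen with earlier results of these data known. The peaks named are, for each gene, the promoter peak, the 3 of highest fold in each list, specific peaks with −log10 q of at least 5 and those next to 100 kb. Shared regions whose place shifted and the distal Sox2 peaks were added after their values were seen. Lists of 20 network partners, 14 naive, 11 primed, 10 primitive streak, 10 feeder, 10 neurectoderm, 10 organ and 10 housekeeping genes were counted beside them. Alternatives were other overlaps, stricter q, 50000 peaks per list, 20 kb and summit distances.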

Additional observations from a re-analysis of the deposited data

How the results depend on the processing

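At a stricter −log10 q, 5 or more on either side, the members had 34 shared regions. With specific peaks limited to −log10 q of at least 10 they had 5 FM-specific and 4 KO-specific regions. With 50000 peaks from each list they had 24 shared, 12 FM-specific and 13 KO-specific, an FM share of 48%, and 66.7% of FM member peaks were shared. Up to 20 kb from the gene they had 32 shared, 12 FM-specific and 9 KO-specific, and 73.9% of FM member peaks were shared. The last setting drops the distal regions of Sox2, Sall4 and Zfp281 by construction. With 50000 peaks from each list the lists are equally long, so over the genome the specific peaks of FM and KO come out near equal in number. A stricter q takes out peaks by definition. Whether the members moved more than other genes under these settings was not tested. The remaining 40 values for the members together stayed within 1.5 times the count or within the interval, but some orders turned. At 50000 peaks the FM share passed below 50%, and the share of member peaks found in the other list was 66.7% for FM and 65.8% for KO, from 56.9% and 73.8%. For single genes 82 counts stayed and 30 moved. Ordering by fragments gave 13 FM and 20 KO regions, from 18 and 16 by fold. Genes with more FM-specific regions went from 6 to between 2 and 4 under a stricter q, 50000 peaks or 20 kb, and genes with more KO-specific ones from 0 to 1 or 2.

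No paired analysis was possible because each group is 1 list that combines its libraries, and for the same reason leaving out a library was not done. The weakest member peaks rest on 47 fragments in FM and 46 in KO, where 28.6 and 28.8 are expected.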

Other observations

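Promoters of neurectoderm genes were open at 5 of 7 in both lists, and these 10 genes had 106 shared, 103 FM-specific and 29 KO-specific regions. Of their shared regions 27 stood over 10 points higher in FM and 44 in KO (25.5% and 41.5%), where the members had 32.1% and 28.6%. The 10 primitive streak genes had 105, 71 and 22 regions, and Gsc, a streak homeobox gene, had the most, 50. The 10 housekeeping genes had 50, 38 and 20, with 6 of 7 promoters open in both lists.

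Whether a promoter was in 1 list alone went with its CpG content. Of 6405 promoters with 15 or more CpG sites, the class of Sox2 and Zfp281, 0.625% were in KO alone and 0.531% in FM alone. In this class 98.3% had a peak in KO and 98.2% in FM. In the 5 to 14 class, which holds Pou5f1, Utf1 and Lin28a, 1.97% were in KO alone and 5.08% in FM alone, and with no CpG site 1.24% and 3.42%. Promoters with a peak at all made up 79.4% (KO) and 82.5% (FM) of the 5 to 14 class. With no CpG site they made up 4.27% and 6.45%.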
